A study of Rattus norvegicus with 115 samples.

Results

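The comparison set brain tissue from the hemisphere opposite an implanted 9L tumour, taken 48 h after synchrotron microbeam radiation therapy (MRT), against the same tissue taken 48 h after a broad beam (BB). It rests on 7 MRT arrays and 3 BB arrays, 10 of the 115 arrays of the study, chosen by their titles, with each array from a different rat. Fisher rats had received 9L cells, a rat gliosarcoma line, in the right caudate nucleus, and were irradiated 10 days later. MRT rats received 400 Gy per microbeam, with a valley dose of 18 Gy, at 90 keV, BB rats received a homogeneous dose of 17,4 Gy (decimal comma as in the labels), and 4 untreated contralateral arrays of the same time came from tumour-bearing rats that were not irradiated. The BB arrays form a label set of their own, and the submitters' processing notes name MAS5 and RMA for the MRT and untreated arrays and RMA alone for the BB arrays. Within this tissue the beam and the label set cannot be told apart.

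In microbeam irradiation an array of very narrow parallel beams leaves stripes of tissue at the peak dose, separated by valleys that receive mainly scattered dose, whereas a broad beam exposes the field evenly. Irradiated brain is known to respond through its resident microglia and its astrocytes, and through monocytes that can enter from the blood. Chemokines of the Ccl family attract monocytes, MHC class II molecules present peptides to CD4 T cells, and lysosomal and phagocytic receptor genes mark activated microglia and macrophages. In whole tissue, fewer cells of a type and less RNA per cell cannot be told apart.

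At 48 h after MRT the opposite hemisphere held higher levels of many macrophage and MHC class II transcripts than after BB. The chemokines Ccl2, Ccl7 and Ccl5 were also higher, and a smaller and less stable set of transcripts was lower. Of 31042 probe sets tested with limma on log2 intensity, 333 were called at adjusted p under 0.05 (1.07%), with 254 higher after MRT (0.818%) and 79 lower (0.254%). On 249 of the 254 the 7 MRT and 3 BB arrays did not overlap, and on 58 of the 79, against 4.6% and 3.1% of all probe sets. The median log2 difference, MRT minus BB, was 1.00 over the 254 and -0.82 over the 79, against 0.01 over all probe sets. With 1 probe set for each of 14217 genes, 225 genes were called (1.58%), 200 higher (1.41%) and 25 lower (0.176%), and the arrays did not overlap on 197 of the 200 and 19 of the 25, against 7.33% and 2.55% of all genes. With all 115 arrays fitted and the rat as a block, 181 probe sets were called, 119 higher and 62 lower, 150 of them shared with the 333. The count fell to 86 without the BB array of rat 50, 180 without BB rat 51, 134 without BB rat 52, 212 without MRT rat 20 and 213 without MRT rat 22, and it rose to 656 without the untreated array of rat 18.

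Array medians were alike, from 125 to 131 on the MRT arrays and from 127 to 130 on the BB arrays, while untreated rat 18 stood apart at 165 against 122.5 to 125 on the other untreated arrays. Values against untreated tissue are therefore given from the fit without that array, a choice made after the data were seen. The tissue held neuronal markers at like levels, a mean log2 intensity over 20 pan-neuronal genes of 11.65 to 12.03 on MRT arrays, 11.89 to 12.09 on BB arrays and 11.96 to 12.11 on untreated arrays without rat 18. Markers of brain regions varied more between arrays. Striatal markers had mean log2 intensities of 9.33 to 10.95 on MRT arrays and 8.94, 10.32 and 10.81 on BB rats 50, 51 and 52, and choroid plexus markers 6.39 to 8.66 on MRT arrays and 6.09, 8.32 and 8.25 on BB arrays. With choroid plexus markers as a covariate, 281 probe sets were called, and with striatal markers 376.

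The class II genes were among the largest rises, and the promoters of the classical pairs are shown because their members moved together. RT1-Ba and RT1-Bb encode the chains of the rat RT1.B molecule, the counterpart of human HLA-DQ, and RT1-Da and RT1-Db1 those of RT1.D, the counterpart of HLA-DR. Class II promoters are known for conserved X and Y boxes, which are bound by the RFX and NF-Y complexes and, through them, by the transactivator Ciita. Each line gives the 150 bases before the RefSeq gene start on assembly GRCr8, 5′ to 3′ on the strand of the gene, with the Y box letters CTGATTGG and the X box letters (GCAAC, any base, GATG) in capitals where a search of both strands found them.
RT1-Ba, chr20:4576907-4577056, plus strand: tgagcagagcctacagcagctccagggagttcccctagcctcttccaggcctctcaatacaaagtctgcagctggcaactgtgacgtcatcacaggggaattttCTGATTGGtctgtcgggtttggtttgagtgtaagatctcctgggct
RT1-Bb, chr20:4604119-4604268, minus strand: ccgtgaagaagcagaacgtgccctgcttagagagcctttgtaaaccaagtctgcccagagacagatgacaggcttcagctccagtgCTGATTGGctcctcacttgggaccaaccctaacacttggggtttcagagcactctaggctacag
RT1-Da, chr20:4515265-4515414, plus strand: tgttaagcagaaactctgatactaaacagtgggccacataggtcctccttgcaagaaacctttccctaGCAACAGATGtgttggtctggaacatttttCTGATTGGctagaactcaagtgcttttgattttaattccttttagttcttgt
RT1-Db1, chr20:4560163-4560312, minus strand: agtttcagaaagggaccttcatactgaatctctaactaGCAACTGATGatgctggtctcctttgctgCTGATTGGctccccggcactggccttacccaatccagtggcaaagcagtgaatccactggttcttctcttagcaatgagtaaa
The Y box letters began 46 bases before the start in RT1-Ba, 64 in RT1-Bb, 52 in RT1-Da and 83 in RT1-Db1, and the X box letters 82 bases before it in RT1-Da and 112 in RT1-Db1, with no overlap between the motifs. In the same window of all 33469 RefSeq promoters in the table, 2.45% held the Y box letters and 0.0807% the X box letters. The windows of RT1-DMa and Cd74 held neither, and RT1-DMb and Ciita were not in the table. Only the exact letters of each box were searched, so variant forms of the boxes were not sought in any window.

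The 7 genes of the antigen presentation list that rose all belong to the class II pathway: the 4 classical chains, the invariant chain Cd74 and the peptide-exchange chains RT1-DMa and RT1-DMb. In what follows 3 values for MRT are the lowest, median and highest of the 7 arrays, values for BB are those of rats 50, 51 and 52, and values for untreated tissue those of rats 15, 16, 17 and 18. RT1-Da had intensities of 2798, 3458 and 4132 on MRT arrays, 741, 811 and 804 on BB arrays and 106, 130, 201 and 335 on untreated arrays. The 3 groups did not overlap, and the log2 difference, MRT minus BB, was 2.09 ± 0.41 (SE; limma adjusted p = 0.00233). Cd74, which guides class II molecules to the peptide-loading compartment, read 2704, 2959 and 4628 after MRT, 827, 892 and 964 after BB and 213, 210, 294 and 386 in untreated tissue. It differed between MRT and BB by 1.92 ± 0.33 (adjusted p = 0.000552), and the BB arrays again lay between the other groups. RT1-Ba was 2.15 ± 0.42 higher (adjusted p = 0.00232), with 954, 1128 and 2227 after MRT, 273, 302 and 325 after BB and 95, 81, 162 and 201 untreated. In RT1-Ba, as in the others, every MRT array exceeded every BB array. RT1-Bb was 2.16 ± 0.40 higher (4.47-fold), RT1-Db1 2.14 ± 0.41 (4.41-fold), RT1-DMb 1.12 ± 0.20 (2.17-fold) and RT1-DMa, chosen after its values were seen, 0.97 ± 0.20. For RT1-Bb another probe set had the opposite sign without being called, and for RT1-Ba 3 other probe sets had the same sign but were not called. Binding of the probes to transcripts of related RT1 genes was not tested.

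Class I and the processing machinery gave smaller differences that were not called. Of 17 measured genes of the antigen presentation list 7 rose and 0 fell (1.41% of all genes rose and 0.176% fell). The median log2 difference was 0.73 against 0.04 over all genes. Of the 17, 11 had MRT arrays all above BB arrays (7.33% of all genes). Ciita, the class II transactivator, chosen after its values were seen, differed by 1.10 ± 0.33 with adjusted p = 0.0959, and B2m, the class I light chain, also chosen so, by 0.43 ± 0.13 with adjusted p = 0.079. The peptide transporter genes Tap1 (0.73 ± 0.27, adjusted p = 0.22) and Tap2 (0.42 ± 0.22, adjusted p = 0.51), chosen in the same way, were not called. Against untreated tissue the list's median was 1.04 for MRT and 0.41 for BB, 2 comparisons that share their untreated arrays.

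**Figure D1:**
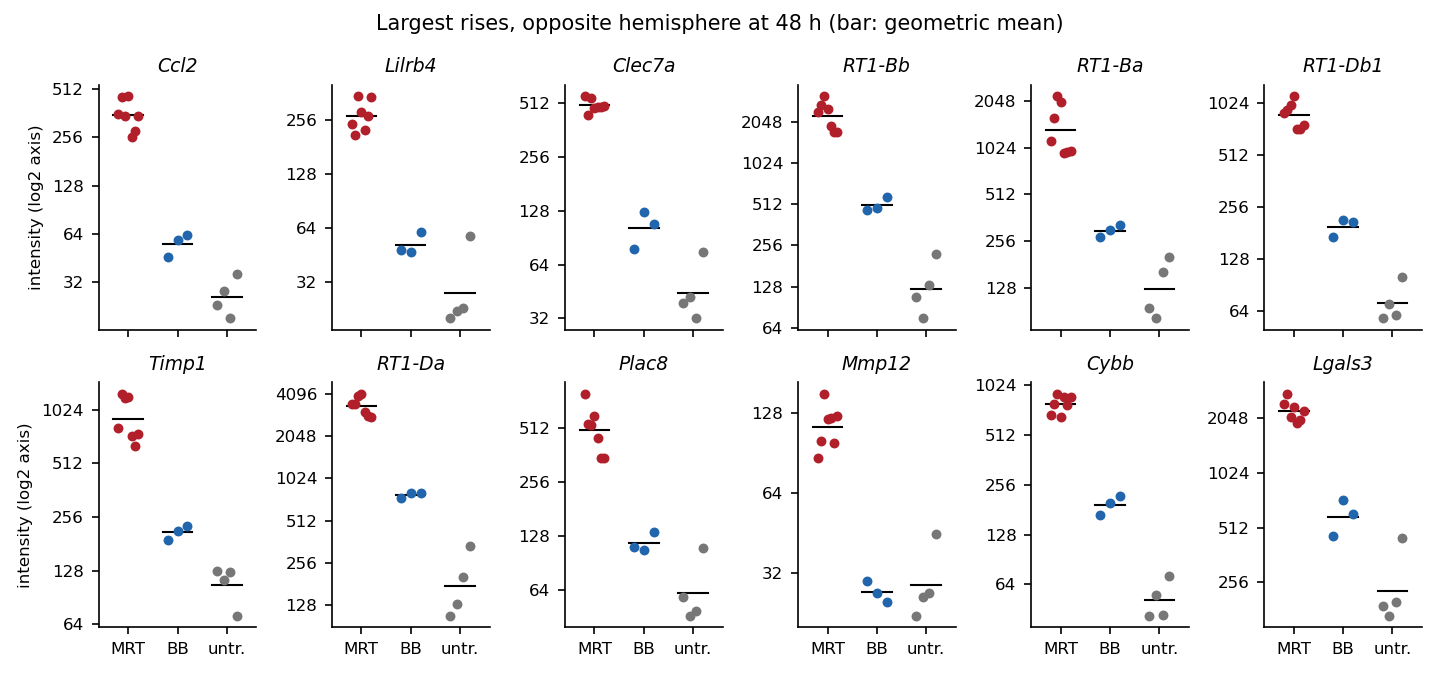
Intensity on a log2 axis of the 12 genes with the largest rises, on the 7 MRT, 3 BB and 4 untreated contralateral arrays of 48 h, where each point is 1 array and the bar the geometric mean. For every gene shown the MRT points lie above all BB points, as for Ccl2, with 256 to 467 after MRT against 46 to 63 after BB, and the highest untreated point is in most panels that of rat 18.

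Ccl2, which encodes the main chemokine for monocytes, had the largest rise of any gene whose arrays did not overlap. Its intensities were 256, 348 and 467 on MRT arrays, 46, 59 and 63 on BB arrays and 23, 28, 19 and 36 on untreated arrays, a log2 difference of 2.67 ± 0.46 between MRT and BB, or 6.34-fold (adjusted p = 0.000433). Against untreated tissue it was 3.93 ± 0.46 higher after MRT (adjusted p = 1.05e-08), and after BB the difference was 1.27 ± 0.54 (adjusted p = 0.158). Ccl7, a neighbouring chemokine of the same receptor family, had 75, 106 and 136 after MRT, 27, 24 and 36 after BB and 39, 23, 27 and 85 untreated, so that the BB and untreated arrays overlapped. It was 1.91 ± 0.43 higher after MRT than after BB (adjusted p = 0.0109), a call lost without BB rat 50 or rat 51. Icam1, an adhesion molecule of vessel walls and leukocytes, was 1.18 ± 0.29 higher (adjusted p = 0.0246), with 270, 339 and 434 on MRT arrays, 140, 162 and 147 on BB arrays and 155, 109, 112 and 236 on untreated arrays. MRT and BB arrays did not overlap, but it lost its call without any of 5 arrays (each BB array, MRT rat 20 and MRT rat 21). These 3 were the called members among 24 cytokine, chemokine and adhesion genes, and 0 fell (1.41% of all genes rose and 0.176% fell). The median log2 difference of the list was 0.37, against 0.04 over all genes. On 11 of the 24 all MRT arrays lay above all BB arrays (7.33% of all genes). Ccl5, a chemokine of T and NK cells, was 1.29 ± 0.31 higher (adjusted p = 0.0183), a call lost without BB rat 50 or rat 52. It was the only called member of 19 measured T and NK cell genes, where 1.41% of all genes rose. The median of these genes was 0.36, against 0.04 over all genes. Of the 19, 18 lay above 0 and 4 had all MRT arrays above all BB arrays (7.33% of all genes). The defining markers Cd3e (0.73 ± 0.29, adjusted p = 0.28), Cd8a (0.44 ± 0.26, adjusted p = 0.59) and Prf1 (0.57 ± 0.21, adjusted p = 0.22) were not called.

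Macrophage and monocyte genes gave the list with the most calls. Of 23 measured members 16 rose and 0 fell, with a median log2 difference of 1.14, and on 19 of the 23 every MRT array exceeded every BB array. Over all genes the shares were 1.41% and 7.33% and the median 0.04. The count was 10 with all arrays and the rat as a block and 9 without BB rat 50 and again 9 without BB rat 51. Their mean log2 intensity was 8.39 to 8.57 on MRT arrays, 7.22, 7.33 and 7.41 on BB arrays and 6.58 to 6.73 on untreated rats 15 to 17. Against untreated tissue the median difference of the list was 1.74 for MRT and 0.55 for BB.

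Cybb encodes the catalytic subunit of the phagocyte NADPH oxidase. It had 663, 788 and 915 on MRT arrays, 169, 198 and 219 on BB arrays and 41, 55, 42 and 72 on untreated arrays, and was 2.03 ± 0.31 higher after MRT (adjusted p = 8.9e-05). Clec7a, the beta-glucan receptor dectin-1, had 441, 489 and 566 after MRT, 78, 127 and 108 after BB and 39, 42, 32 and 75 untreated, a difference of 2.29 ± 0.36 (adjusted p = 0.000125). Lilrb4, an inhibitory receptor of myeloid cells, was 2.40 ± 0.44 higher, at 212, 270 and 351 after MRT, 48, 47 and 61 after BB and 20, 22, 23 and 58 untreated (adjusted p = 0.00111). For all 3 the MRT arrays lay far above the BB arrays, and the BB arrays above untreated rats 15 to 17.

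Lgals3 and Gpnmb, a galectin and a lysosomal glycoprotein that phagocytes make in large amounts when they take up debris, behaved alike. Lgals3 had 1941, 2263 and 2808 after MRT, 459, 726 and 607 after BB and 188, 166, 199 and 449 untreated, and Gpnmb 2049, 2431 and 3139 after MRT, 652, 827 and 742 after BB and 226, 200, 241 and 462 untreated. The log2 differences between MRT and BB were 1.94 ± 0.32 (adjusted p = 0.000207) and 1.78 ± 0.27 (adjusted p = 8.2e-05). Mmp12, the macrophage elastase, differed in its order: it had 87, 122 and 152 after MRT, 30, 27 and 25 after BB and 22, 26, 27 and 45 untreated. The BB arrays thus lay within the untreated range, and the difference between MRT and BB was 2.06 ± 0.24 (adjusted p = 5.28e-07). Spp1, the secreted phosphoprotein osteopontin, had 165, 344 and 479 after MRT, 52, 108 and 130 after BB and 99, 105, 139 and 165 untreated. Its difference of 1.79 ± 0.48 was barely called (adjusted p = 0.0454), and leaving out any of 9 of the 10 arrays, all but MRT rat 21, ended the call.

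Of the 3 defining markers of the macrophage list, the lysosomal marker Cd68 was called (1.35 ± 0.25, adjusted p = 0.00112), whereas Mrc1 (0.57 ± 0.27, adjusted p = 0.41) and Cd163 were not, and Cd163 averaged 17.1 on MRT arrays and 17.0 on BB arrays, under the lower quartile of the arrays (37 to 39). None of 10 measured homeostatic microglia genes was called, with a median of 0.14 against 0.04 over all genes. Of the 10, 6 lay above 0 and 3 had all MRT arrays above all BB arrays (7.33% of all genes). Aif1, a calcium-binding protein of microglia and macrophages, came nearest to a call at 0.88 ± 0.29 (adjusted p = 0.149), with 997, 1152 and 1492 after MRT, 603, 628 and 659 after BB and 495, 565, 570 and 105 untreated. The defining markers of the list were Cx3cr1 (0.10 ± 0.16), P2ry12 (-0.46 ± 0.42) and Tmem119 (-0.48 ± 0.36), with adjusted p of 0.92, 0.81 and 0.73. Of the 9 neutrophil genes 0 were called, and S100a8 differed by 0.01 ± 0.39. Which cells carried the higher transcripts was not tested.

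Complement genes, among them components such as C1qa and C3, formed a smaller group. Of 10 measured genes 2 rose, a receptor and a regulator, and 0 fell (1.41% of all genes rose). All 10 lay above 0, with a median of 0.62 against 0.04 over all genes. On 9 of the 10 all MRT arrays lay above all BB arrays (7.33% of all genes). C5ar1, the receptor for the fragment C5a, had 171, 205 and 250 on MRT arrays, 94, 90 and 80 on BB arrays and 64, 59, 60 and 63 on untreated arrays, and was 1.27 ± 0.23 higher after MRT (adjusted p = 0.000995). Serping1, the C1 inhibitor, had 1305, 1471 and 2409 after MRT, 594, 837 and 722 after BB and 184, 160, 202 and 322 untreated (1.19 ± 0.23, adjusted p = 0.00205), a call lost without BB rat 50. Of 26 interferon response genes 1 rose and 0 fell, where 1.41% of all genes rose. On 16 of the 26 all MRT arrays lay above all BB arrays (7.33% of all genes). The median of the list was 0.63, against 0.04 over all genes. The called gene was Mx1, an antiviral GTPase, with 186, 301 and 644 after MRT, 70, 102 and 82 after BB and 29, 22, 27 and 42 untreated (1.91 ± 0.41, adjusted p = 0.00727). Its values spread widely among MRT arrays, and the call was lost without BB rat 50 or rat 52.

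Some genes of reactive astrocytes also rose. Timp1, an inhibitor of matrix metalloproteinases made by reactive astrocytes and by many other cells, had 637, 803 and 1259 after MRT, 190, 213 and 227 after BB and 127, 113, 126 and 71 untreated, a difference of 2.11 ± 0.46 (adjusted p = 0.00675) whose call was lost without BB rat 50. Hspb1, a small heat shock protein, had 695, 737 and 982 after MRT, 181, 275 and 284 after BB and 140, 166, 176 and 156 untreated (1.69 ± 0.36, adjusted p = 0.00676), again not called without BB rat 50. It was the called member of 11 heat shock genes, whose median was 0.06, and 0 of 15 Nrf2 targets were called (median 0.23). Over all genes 1.41% rose, 0.176% fell and the median was 0.04. All MRT arrays lay above all BB arrays on 3 of the 11 and 4 of the 15 (7.33% of all genes). They lay below all BB arrays on 0 of the 11 and 1 of the 15 (2.55%). Aspg, an asparaginase listed as a marker of reactive astrocytes, was 0.72 ± 0.19 higher (adjusted p = 0.0373), and leaving out any of 7 arrays ended its call (the 3 BB arrays and MRT rats 19 to 22). In all, 4 of 14 measured reactive astrocyte genes rose and 0 fell (median 0.70, against 1.41% and 0.04 over all genes), while the filament genes Gfap (0.68 ± 0.27, adjusted p = 0.29) and Vim (1.05 ± 0.30, adjusted p = 0.077), both chosen after their values were seen, were not called. None of the 12 measured genes of resting astrocytes was called (median 0.02).

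Mt2A, a metallothionein that binds zinc and copper, had 4237, 5052 and 5639 after MRT, 1835, 2387 and 2105 after BB and 1212, 1094, 1611 and 2617 untreated, and was 1.22 ± 0.22 higher (adjusted p = 0.000999). Cebpd, a transcription factor of inflammatory responses, was 1.13 ± 0.27 higher (adjusted p = 0.018), a call lost without BB rat 50 or rat 52. Both stood on the list of glucocorticoid targets, of which 2 of 19 rose, 0 fell and the median was -0.05. Over all genes 1.41% rose, 0.176% fell and the median was 0.04. Gdf15, a stress-induced cytokine and a p53 target, had 115, 130 and 210 after MRT, 83, 60 and 59 after BB and 59, 53, 45 and 70 untreated (1.05 ± 0.24, adjusted p = 0.014). It was the only called gene among 22 p53 targets (median 0.31), and its call was lost without BB rat 51 or rat 52. On 9 of the 22 targets all MRT arrays lay above all BB arrays (7.33% of all genes). Anpep, an aminopeptidase, was the called member of 12 pericyte and smooth muscle genes at 0.74 ± 0.17 (adjusted p = 0.0116), a call lost without BB rat 50 or rat 52. The median of these 12 was 0.22, and 8 lay above 0, where 1.41% of all genes rose and the median was 0.04. All MRT arrays lay above all BB arrays on 2 of the 12 (7.33% of all genes) and below them on 1 (2.55%). Plac8, a small cysteine-rich protein, had 349, 531 and 796 after MRT, 111, 107 and 136 after BB and 59, 46, 49 and 110 untreated. Although its MRT and BB arrays did not overlap, its difference of 2.08 ± 0.56 (adjusted p = 0.0466) lost its call without any of 7 arrays (the 3 BB arrays and MRT rats 19 to 22).

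Markers listed for 9L tumour cells included 4 called genes of 11 measured, with a median of 0.61 and 0 lower, where 1.41% of all genes were higher and 0.176% lower. They were Timp1, Spp1, the matrix protein gene Tgfbi (1.38 ± 0.37, adjusted p = 0.049, chosen after its values were seen) and Plau, the urokinase-type plasminogen activator, with 121, 198 and 247 after MRT, 50, 61 and 67 after BB and 49, 54, 51 and 158 untreated (1.62 ± 0.27, adjusted p = 0.000397). The 2 defining markers did not move with them: Cdkn2a averaged 22.4 on MRT arrays and 22.3 on BB arrays, under the lower quartile of the arrays, and Mmp3 averaged 46.1 and 56.7 (-0.51 ± 0.76, adjusted p = 0.91). Spp1 also stands on the macrophage list and Timp1 on the reactive astrocyte list. Mitosis genes were not called (0 of 25, median 0.30), nor were DNA replication genes (0 of 25, median 0.12).

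**Figure D2:**
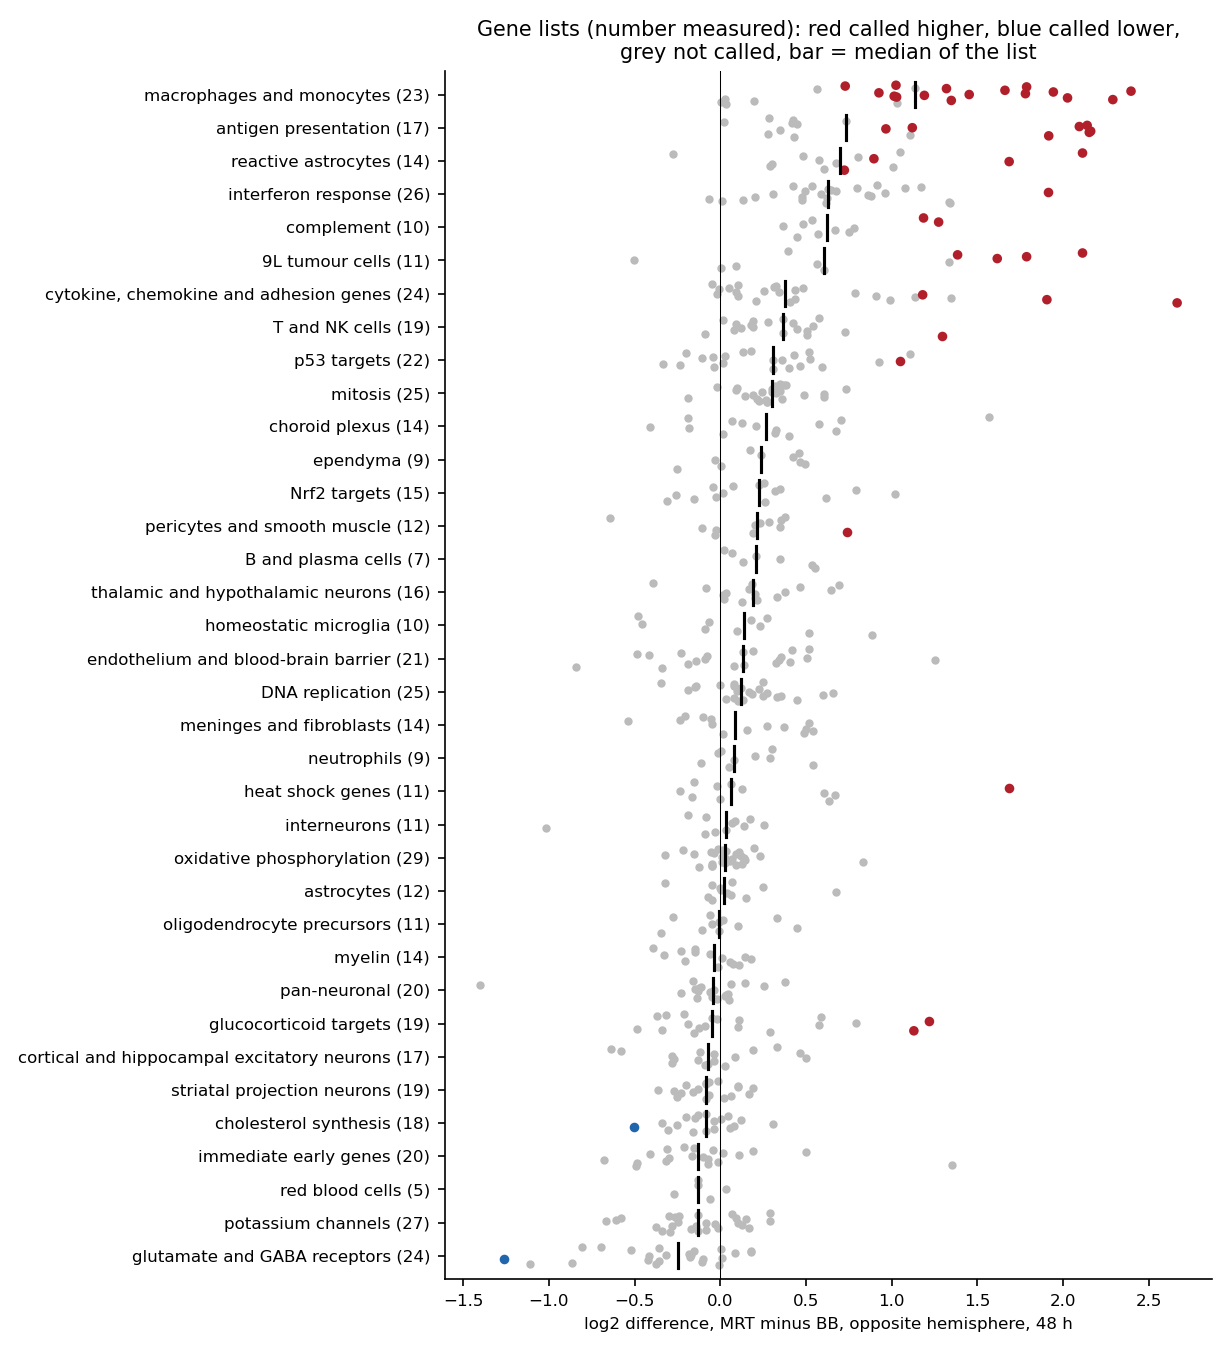
Log2 difference, MRT minus BB, in the opposite hemisphere at 48 h for the measured genes of 36 lists, where each point is 1 gene and the black bar the median of its list. Genes called higher (red) lie mainly in the macrophage (16 of 23), antigen presentation (7 of 17), reactive astrocyte (4 of 14) and 9L tumour cell (4 of 11) lists, and the 2 genes called lower (blue) in the receptor and cholesterol lists.

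Of the 36 lists, which held 588 measured genes, 12 had higher calls only, 2 had lower calls only and 22 had none. The neuronal lists were among those with none, with medians of -0.04 over 20 pan-neuronal genes, -0.08 over 19 striatal projection neuron genes and -0.07 over 17 cortical and hippocampal genes. Syt1, a synaptic calcium sensor, came nearest to a call among the pan-neuronal genes at -1.40 ± 0.39 (adjusted p = 0.058), with 117, 270 and 686 on MRT arrays, 906, 825 and 665 on BB arrays and 221, 193, 232 and 397 on untreated arrays. Its MRT arrays overlapped both other groups. Myelin genes (0 of 14, median -0.04), oligodendrocyte precursor genes (0 of 11, median -0.01) and oxidative phosphorylation genes (0 of 29, median 0.03) also had no calls. Among 21 endothelial and blood-brain barrier genes 0 were called, and Abcg2, a drug efflux pump of brain capillaries, was nearest at -0.84 ± 0.23 (adjusted p = 0.0563), with 213, 273 and 345 after MRT, 515, 488 and 491 after BB and 506, 462, 325 and 340 untreated.

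The 79 probe sets that were lower after MRT differed in kind from the 254 that were higher. Their median mean log2 intensity was 6.07, against 8.55 for the higher ones, and 41 of the 79 were not the brightest probe set of their gene. Of the 40 genes behind those 41, the brightest probe set was called lower in 2, and its median difference was -0.13. Over the 79, the BB arrays of rats 50, 51 and 52 lay 0.96, 0.63 and 0.86 (log2, median) above the MRT mean, and untreated rats 15, 16, 17 and 18 lay -0.05, 0.08, 0.03 and 0.48 from it. The MRT arrays themselves divided, with rats 19 to 22 at -0.33, -0.31, -0.15 and -0.29 from their mean and rats 23, 25 and 26 at 0.39, 0.34 and 0.34. Of the 79 calls, 4 were kept without BB rat 50, 40 without rat 51 and 10 without rat 52. Whether the position of the BB arrays above untreated tissue came from the label set was not tested.

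Htr2a, the serotonin 2A receptor, had the largest fall among genes whose arrays did not overlap. It had 47, 117 and 228 on MRT arrays, 454, 256 and 287 on BB arrays and 110, 123, 138 and 136 on untreated arrays, a log2 difference of -1.51 ± 0.35 (adjusted p = 0.0126). MRT rats 23, 25 and 26 read 197, 218 and 228, above every untreated array, and rats 19, 20 and 22 read 47, 66 and 66, below every one. The difference from untreated tissue was -0.12 ± 0.35 for MRT (adjusted p = 0.88) and 1.39 ± 0.41 for BB (adjusted p = 0.0432). Of 3 other probe sets of Htr2a 1 was also called lower and 1 had the opposite sign. Gabrg1, the gamma-1 subunit of the GABA-A receptor, was the called member of 24 glutamate and GABA receptor genes (median -0.25, with 0.176% of all genes lower). Of the 24, 5 lay above 0 and 6 had all MRT arrays below all BB arrays (2.55% of all genes). Gabrg1 had 57, 85 and 169 after MRT, 256, 142 and 292 after BB and 97, 120, 111 and 258 untreated. Its arrays overlapped, and it differed by -1.26 ± 0.28 (adjusted p = 0.00891). Without BB rat 50 or rat 52 neither gene was called.

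Efhd1, a mitochondrial calcium-binding protein, was tighter: it had 285, 310 and 348 on MRT arrays, 471, 475 and 556 on BB arrays and 539, 656, 704 and 959 on untreated arrays. Here all BB arrays lay above the MRT arrays, the highest overlapped the untreated ones, and the difference between MRT and BB was -0.69 ± 0.16 (adjusted p = 0.0156). It was -1.03 ± 0.15 for MRT against untreated tissue (adjusted p = 3.86e-06) and -0.33 ± 0.18 for BB (adjusted p = 0.282). With untreated rat 18 in the fit the BB difference was -0.49 and called (adjusted p = 0.0439). Tnnc2, the fast troponin C of muscle, had 94, 132 and 151 after MRT, 314, 180 and 227 after BB and 626, 392, 441 and 523 untreated (-0.96 ± 0.25, adjusted p = 0.0454), with the 3 groups in that order and no overlap. Nat8f3, of an N-acetyltransferase family, had 110, 133 and 177 after MRT, 321, 216 and 297 after BB and 240, 251, 236 and 287 untreated (-0.98 ± 0.22, adjusted p = 0.01). Folh1, the peptidase that cleaves N-acetylaspartylglutamate, had 85, 101 and 119 after MRT, 140, 134 and 182 after BB and 135, 158, 126 and 94 untreated (-0.56 ± 0.12, adjusted p = 0.0077).

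The remaining largest falls were in genes of neuronal signalling, adhesion and membrane traffic, with BB arrays at or above untreated rats 15 to 17. Necab1, a neuronal calcium-binding protein, fell by 1.05 ± 0.25, the axon guidance factor Sema3a by 0.86 ± 0.21, the potassium channel Kcnh7 by 0.85 ± 0.23 and the adhesion molecule Cntn4 by 0.81 ± 0.21. Ica1l fell by 0.75 ± 0.15, the sphingomyelin synthase Sgms1 by 0.73 ± 0.18 and the SNARE protein Vti1a by 0.63 ± 0.17. The adjusted p of these 7 ran from 0.00302 for Ica1l to 0.0499 for Vti1a. For Sgms1 the only other probe set had the opposite sign without being called. Against untreated tissue the differences after MRT were 0.28 for Sema3a and 0.21 for Vti1a, and -0.17 for Necab1, -0.22 for Kcnh7, -0.32 for Cntn4, -0.37 for Ica1l and -0.35 for Sgms1, none of them called. With untreated rat 18 in the fit, those of Cntn4 (-0.67, adjusted p = 0.00893), Ica1l (-0.41, adjusted p = 0.0215) and Sgms1 (-0.55, adjusted p = 0.00919) were called. Sema3a was 1.13 ± 0.25 higher after BB than in untreated tissue (adjusted p = 0.00708), and Vti1a 0.84 ± 0.19 higher (adjusted p = 0.00907). Hsd17b7, an enzyme of cholesterol synthesis, was the called member of 18 genes of that pathway (median -0.09, with 0.176% of all genes lower). Of the 18, 6 lay above 0 and 3 had all MRT arrays below all BB arrays (2.55% of all genes). Hsd17b7 differed by -0.50 ± 0.12 (adjusted p = 0.0227). Each of these 8 calls, and those of Efhd1, Tnnc2, Nat8f3 and Folh1, was lost without at least 1 of the BB arrays, as was that of each of the 12 largest falls.

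**Figure D3:**
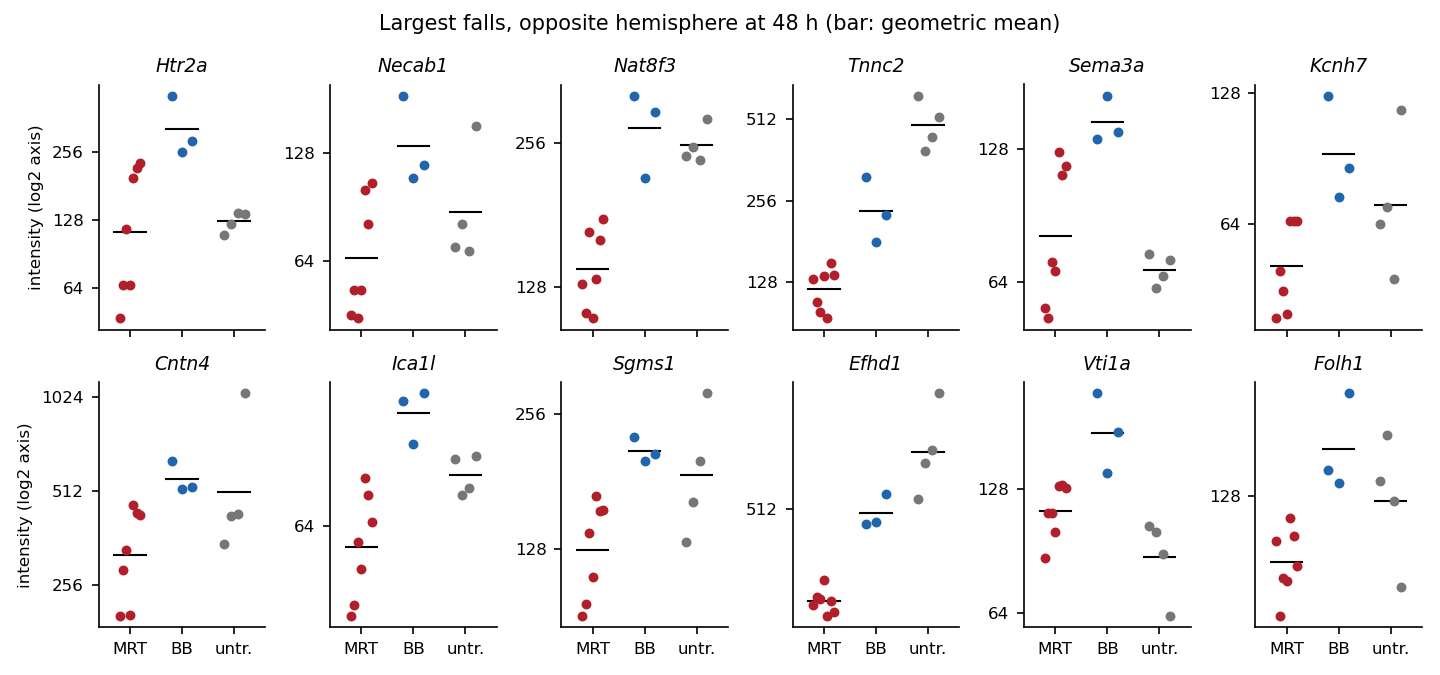
Intensity on a log2 axis of the 12 genes with the largest falls, on the 7 MRT, 3 BB and 4 untreated contralateral arrays of 48 h, where each point is 1 array and the bar the geometric mean. MRT points lie below all BB points in each panel. For Htr2a, Sema3a, Ica1l and Vti1a the BB points, 256 to 454, 135 to 169, 88 to 107 and 140 to 218, also lie above every untreated point.

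The same contrast at other times used other rats but the same label sets. MRT minus BB called 1237 probe sets at 6 h (3.98%), 592 at 8 d (1.91%) and 1030 at 15 d (3.32%). Of the 254 that were higher at 48 h, 203 had the same sign at 6 h, 252 at 8 d and 242 at 15 d, with median differences of 0.19, 0.75 and 0.66. Those also called higher numbered 34 at 6 h (13.4% of the 254 and 4.17% of the 816 called higher there, themselves 2.63% of all probe sets), 154 at 8 d (60.6% and 33.7% of the 457 there, 1.47% of all) and 117 at 15 d (46.1% and 17.0% of the 688 there, 2.22% of all). Of the 79 lower ones 3 were also called lower at 6 h, 1 at 8 d and 1 at 15 d, where 1.36%, 0.435% and 1.1% of all probe sets were lower, with median differences of -0.03, -0.04 and -0.16.

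The genes followed different courses. The difference in Ccl2 was 1.14 ± 0.35 at 6 h, 2.67 ± 0.46 at 48 h, 2.57 ± 0.43 at 8 d and 1.48 ± 0.47 at 15 d. Median intensities of Ccl2 were 4357 after MRT and 1689 after BB at 6 h, 348 and 59 at 48 h, 498 and 99.5 at 8 d and 522 and 249 at 15 d, so the level was highest at 6 h and the difference was not. Mmp12 differed by 0.09 ± 0.19 at 6 h, 2.06 ± 0.24 at 48 h, 3.48 ± 0.23 at 8 d and 3.86 ± 0.25 at 15 d, and Gpnmb by -0.21 ± 0.21, 1.78 ± 0.27, 2.31 ± 0.26 and 2.04 ± 0.28 at these times. For RT1-Da the values were 0.55 ± 0.31, 2.09 ± 0.41, 1.24 ± 0.39 and 0.54 ± 0.42, and at 15 d its 4 MRT arrays (lowest 2902, median 5307.5, highest 8195) overlapped its 4 BB arrays (lowest 1299, median 3778.5, highest 7714). The cytokine list had 17 of 24 genes called higher at 6 h, 3 at 48 h, 3 at 8 d and 0 at 15 d, and the macrophage list 6, 16, 15 and 11 of 23. With 1 probe set a gene the share called at the other times was 4.71% at 6 h, 2.63% at 8 d and 4.64% at 15 d, of which 3.32%, 2.29% and 3.34% were higher and 1.39%, 0.338% and 1.29% lower.

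**Figure D4:**
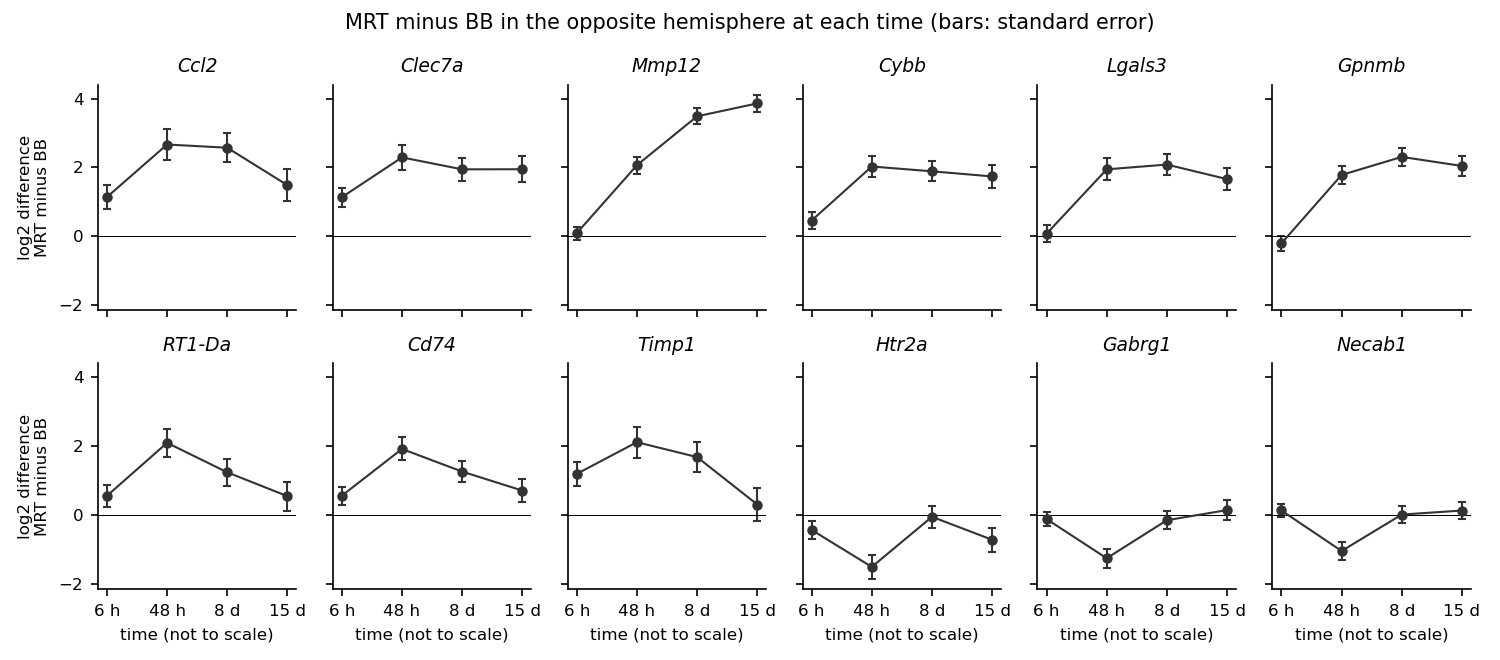
Log2 difference, MRT minus BB, in the opposite hemisphere at 6 h, 48 h, 8 d and 15 d for 12 genes, with bars of 1 standard error and times spaced evenly, not to scale. The difference in Mmp12 is 0.09 at 6 h, 2.06 at 48 h and 3.86 at 15 d, whereas the class II genes are highest at 48 h and Gabrg1 and Necab1 lie below 0 mainly at 48 h.

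Testing the difference between times directly gave few calls. Against 6 h, the 48 h difference changed in 66 probe sets (0.213%), 47 upward (0.151%) and 19 downward (0.0612%). Among the named genes these were Gpnmb (1.99, adjusted p = 0.00191), Mmp12 (1.98, adjusted p = 0.00067), Lgals3 (1.87, adjusted p = 0.0215), Mt2A (1.27, adjusted p = 0.0278), RT1-DMb (1.11, adjusted p = 0.031), Efhd1 (-0.94, adjusted p = 0.0253) and Hsd17b7 (-0.66, adjusted p = 0.0458). For Ccl2 the change was 1.53 (adjusted p = 0.279) and for Icam1 -0.17 (adjusted p = 0.93). Against 8 d there were 2 calls (0.00644%), and against 15 d there were 5 (0.0161%, with 0.00644% upward and 0.00966% downward). Against the mean of the other 3 times, in which a constant difference between label sets cancels, 1 probe set was called (0.00322%) and 2434 had an unadjusted p under 0.05. It measured Siglec5, a sialic acid receptor of myeloid cells, which had 51, 69 and 87 on MRT arrays and 61, 67 and 72 on BB arrays at 48 h. Its MRT minus BB difference was 0.05 ± 0.19 at 48 h, against 1.27 at 6 h, 0.97 at 8 d and 1.39 at 15 d (change -1.16 ± 0.21, adjusted p = 0.035).

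In the tumours of 48 h, 8 after MRT and 4 after BB, the probe sets that were higher in the opposite hemisphere passed no test. None of the 254 probe sets was called there, 195 had the same sign, and their median difference was 0.22. By limma 1 of 31042 probe sets was called in tumour (0.00322%), and 2346 had an unadjusted p under 0.05. Ccl2 had 1880, 2280.5 and 2984 in MRT tumours and 1165, 1797.5 and 2544 in BB tumours (lowest, median and highest), a difference of 0.38 ± 0.41. Cybb had 1551, 1698 and 1950 in MRT tumours and 839, 1335.5 and 2424 in BB tumours (0.32 ± 0.35). Timp1 differed by -0.14 ± 0.34 and Hspb1 by -0.02 ± 0.28, and among class II genes RT1-Ba by 1.15 ± 0.40 (adjusted p = 0.42) and RT1-Da by 0.49 ± 0.33.

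**Figure D5:**
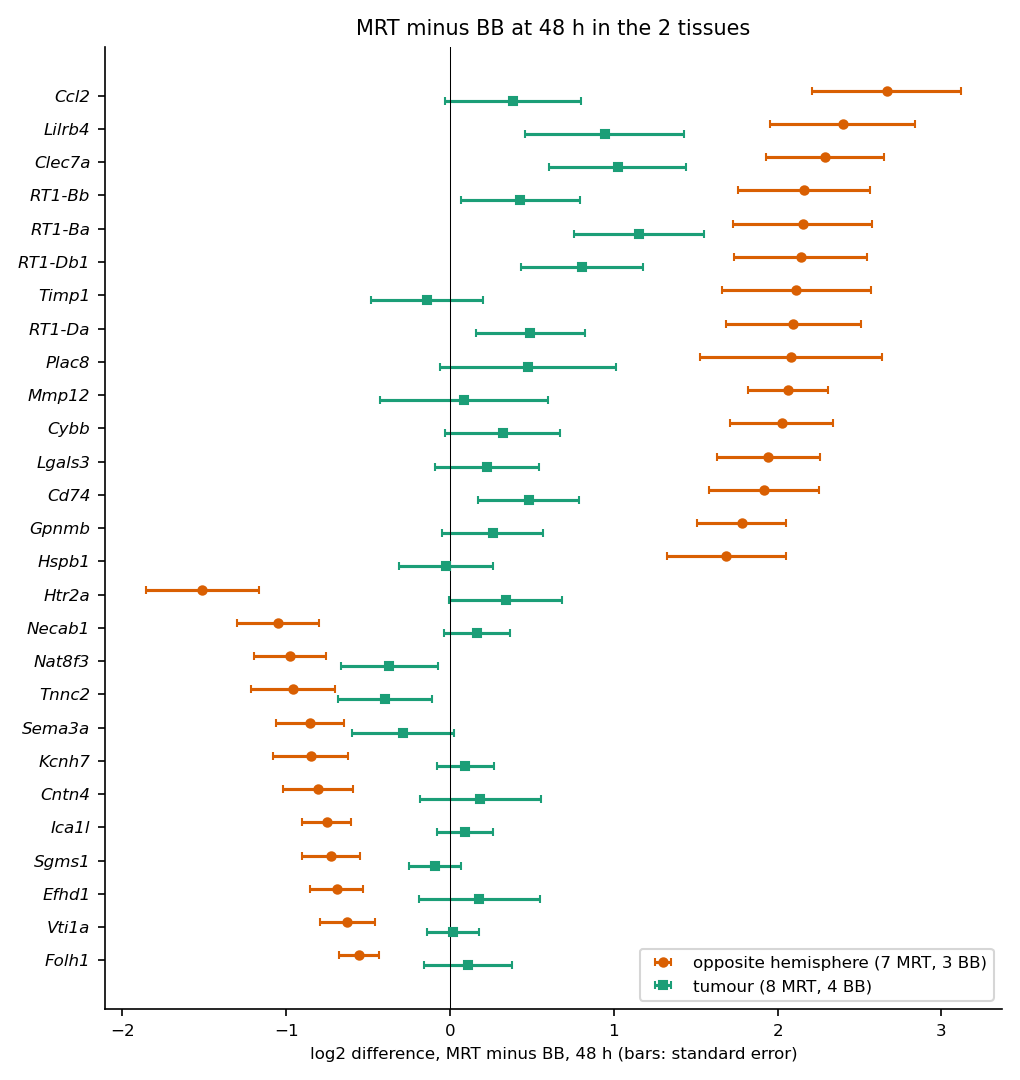
Log2 difference, MRT minus BB, at 48 h with bars of 1 standard error, in the opposite hemisphere (circles, 7 MRT and 3 BB arrays) and in the tumour (squares, 8 MRT and 4 BB arrays). The 15 higher genes lie between 1.69 and 2.67 in the opposite hemisphere and between -0.14 and 1.15 in tumour, and the 12 lower genes lie between -1.51 and -0.56 in the opposite hemisphere and between -0.40 and 0.34 in tumour.

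The test of the difference between tissues, over all 115 arrays, called 4 probe sets (0.0129%), and 2637 had an unadjusted p under 0.05. With the rat as a block, since most rats gave both tissues, 48 were called, 8 higher and 40 lower in the opposite hemisphere. The largest rises were not called by it: the difference between tissues was 2.28 ± 0.62 for Ccl2 (adjusted p = 0.171), 2.25 ± 0.51 for Timp1 (adjusted p = 0.0872) and 1.71 ± 0.53 for Cybb (adjusted p = 0.24). The 4 called probe sets, none of them the brightest of its gene, measured Gabrb2, Hycc2, Tjp1 and Htr2a and were chosen after their values were seen. For Gabrb2, a GABA-A receptor subunit, this probe set had 55, 85 and 277 on contralateral MRT arrays, 496, 264 and 410 on BB arrays and 78, 109, 101 and 167 on untreated arrays, and in tumour 26, 49 and 84 after MRT and 27, 37.5 and 46 after BB. The MRT minus BB difference was -1.79 ± 0.41 in the opposite hemisphere and 0.46 ± 0.31 in tumour (change -2.25 ± 0.47, adjusted p = 0.0453), while its brightest probe set differed by -0.42 ± 0.17 in the opposite hemisphere (adjusted p = 0.27).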

How the data were processed

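RNA was hybridised to Affymetrix rat arrays, per the labels' protocols. Expression Console is named for all arrays in the submitters' processing notes, which list MAS5 and RMA for MRT and untreated arrays but only RMA for BB arrays. Whether all arrays were normalized together is not given in the sources used here. The values the authors deposited are intensity in whole numbers (7 to 27837), not log2 as the design assumed, so log2 of the deposited intensity was taken here, with no pseudocount and no filter.

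Of 31099 probe sets 57 controls were left out. Of the other 31042, 20826 had 1 gene symbol, 436 several and 9780 none, and 20764 matched RefSeq by Entrez ID. The brightest probe set over all arrays stood for each of 14217 genes. Group means over 56 contralateral arrays (45 residual degrees of freedom), or all 115 arrays between tissues, were fitted with limma 3.58.1 in R 4.3.3 with a trended variance prior and adjusted by Benjamini-Hochberg over all probe sets, with calls under 0.05. The fit was tested on simulated data. Tables and figures were made in Python 3.11.15.

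Members and lists were chosen with earlier results of these data known. Named genes are the 12 largest rises and 12 largest falls among called genes whose arrays did not overlap, and from each list up to 3 called members of the largest moderated statistic, or 1 where none was called. The defining markers of a cell type are named too, and others are marked. Both tissues came from 55 rats, whose deviations correlated over 0.1 in 36 (median 0.18), so the rat, numbered in the labels, pairs the tissues and was run as a block (consensus correlation 0.14). P-values within the opposite hemisphere measure the spread between rats, pooled over the groups of its 56 arrays. Those between tissues came from the fit without the block, which takes both arrays of a rat as independent.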

Additional observations from a re-analysis of the deposited data

Results flagged for a closer look

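The untreated contralateral array of rat 18 at 48 h had the highest median intensity of its group, 165 against 122.5, 124 and 125, and its gap to the next array was 0.941 of the group's range. The threshold it passed is passed by chance in about 1 of 20 groups.

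The MRT minus BB difference in Siglec5 was 1.16 lower at 48 h than the mean of the other times (change -1.16). Between tissues at 48 h the difference was lower in the opposite hemisphere than in tumour for probe sets of Gabrb2 (-2.25), Hycc2 (-1.37), Tjp1 (-1.15) and Htr2a (-1.07). Each of these 5 passed the test of the difference itself.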

How the results depend on the processing

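The count of 333 probe sets was within 1.5 times of its value under quantile normalization, a common median, a filter on the dimmest 30%, other variance priors, 1 probe set a gene and each of 3 covariates (276 to 430). It was 1105 with array weights, 521 with only the MRT and BB groups fitted, 181 with only the 3 groups of 48 h, 181 with the rat as a replicate block and 656 without untreated rat 18, an alternative chosen after seeing the data. Leaving out 1 MRT or BB array gave 86 to 477. For the change against the other times, 1 call became 0 under quantile normalization, a common median and the Gapdh covariate, 677 with array weights, 66, 2 and 5 against 6 h, 8 d and 15 d alone, and 0 to 5 without 1 array. The rat as a block gave 1 call there, another probe set. Between tissues 4 calls became 0 without the dimmest 30%, 2182 with array weights, 48 with the rat as a replicate block and 0 to 3 without 1 BB array. The 16 macrophage calls were 10 with the rat as a block and 9 to 16 without 1 MRT or BB array and 18 without untreated rat 18, and the 7 antigen presentation calls 6 to 10 under all alternatives. Estimation of the array weights stopped before it converged in the fit of all arrays. The cause of these shifts was not tested.

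Of 43 named called genes, 16 kept their call without any 1 array and 26 with the rat as a block, and 0 changed direction under any alternative. Among them were 10 of the 12 largest rises and 0 of the 12 largest falls without any 1 array. The precision of every BB mean is limited by its 3 arrays.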
